A study of Mus musculus with 6 samples.

Results

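The BCL2 family genes described here encode regulators of apoptosis. They were taken by gene symbol from the table of normalized read counts, and of 10 symbols 9 had a row among the 16832 genes of the table: Bcl2, Bcl2l1, Mcl1, Bax, Bak1, Bid, Bad, Bmf and Bcl2l11. Bbc3 had no row and was not analysed here. The rule that picks these genes uses their names and no measured value, but the 10 genes were chosen with earlier results of these data known. Mouse embryos at embryonic day 9.5 were microdissected, and RNA of their second heart field region was sequenced. No sorting of cells is described, so RNA of neighbouring cell types can be present. The GoF libraries came from embryos of genotype Hoxb1GOF;Mef2c-Cre, which carry a Hoxb1 gain-of-function allele with a Cre recombinase named for Mef2c, and the CTRL libraries from embryos with Mef2c-Cre, so both groups carry Cre. Cre driven by Mef2c sequences is active in second heart field cells, which add muscle to the growing heart. The table holds 3 GoF libraries (replicates 1, 2 and 3) and 2 CTRL libraries (replicates 2 and 3), and CTRL replicate 1 was not analysed here. Separate embryos, litters or pools are not described for the replicates, and the p-values therefore measure only the spread between these libraries, which may be technical.

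BCL2 family proteins decide whether the outer mitochondrial membrane stays closed. The effectors Bax and Bak1 form pores in it, which lets out cytochrome c and starts the caspases. The pro-survival proteins Bcl2, Bcl-xL (gene Bcl2l1) and Mcl1 hold the effectors back. The BH3-only proteins Bid, Bad, Bmf, Bim (gene Bcl2l11) and Puma (gene Bbc3) bind the pro-survival proteins, and some of them also activate the effectors. Many of these proteins are also controlled after transcription, by phosphorylation (Bad), caspase cleavage (Bid), fast turnover (Mcl1) or binding to the cytoskeleton (Bmf and Bim), which RNA levels do not show.

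Of the 9 genes, 3 rose in GoF and 6 did not pass the test, in which a gene was called at a Benjamini-Hochberg adjusted p under 0.05 in limma over 16794 genes. The 3 were Bmf, 2.13-fold higher, Bak1, 1.88-fold higher, and Bad, 5.66-fold higher. Of all genes tested, 12.2% were called higher and 10.9% lower. The same 3 members were called higher by edgeR and by DESeq2 on the recovered reads, against 12.4% and 13.2% of all genes. No member was called lower by limma, by edgeR (10.2% of all genes) or by DESeq2 (13.3%), and at an unadjusted p under 0.05 the count lower was 0 in limma, 0 in edgeR and 1, Mcl1, in DESeq2. Without GoF replicate 1, 2 members were called higher (4.04% of all genes) and 0 lower (3.3%). The authors' deposited table has the same 3 members at an adjusted p under 0.05, against 13.1% of its genes on the higher side. Bmf was the 1 member still called once a trend of the fold changes with GC content had been subtracted (GC adjustment, described with the base composition of the genes), against 3.1% of all genes, and no member was called when GoF replicate 1 was left out as well, against 0.32% of all genes. In 6 members every GoF library was above both CTRL libraries, which was so for 27.3% of all genes tested, a share not matched for GC content. The remaining 3, Bcl2, Mcl1 and Bcl2l11, are the 3 members with the highest levels per kb of transcript.

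**Figure D1:**
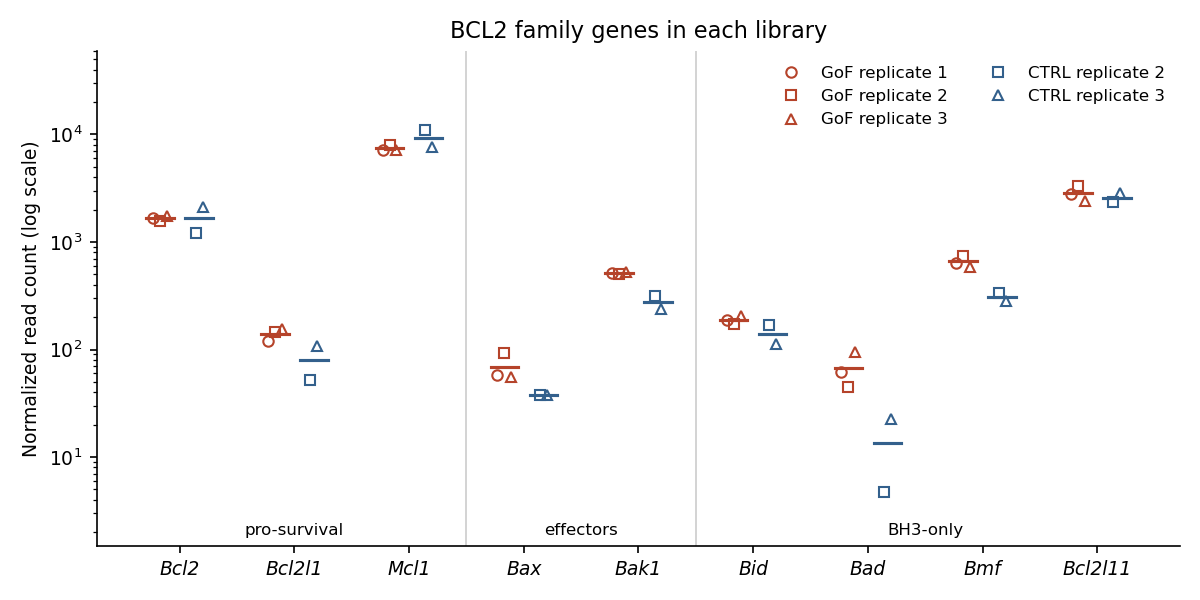
Normalized read count (log scale) of the 9 genes in each GoF library (red, left of each pair) and each CTRL library (blue, right), with marker shapes for the replicates and a bar at the group mean. Bmf, Bak1 and Bad lie higher in all 3 GoF libraries than in both CTRL libraries, as do Bcl2l1, Bax and Bid, while Bcl2, Mcl1 and Bcl2l11 overlap between the groups.

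The promoter windows of the 3 genes that rose and of Bcl2, whose mean differed little between the groups, are shown so that the sequences at the starts of the genes that rose can be read side by side. They are RefSeq windows (GRCm38.p6, the build of mm10) from 250 bases before to 50 bases after an annotated start, given 5′ to 3′ on the strand of the gene, with matches to GGGCGG (the GC box) and CCAAT on either strand in capitals. For Bmf and Bad, which have several annotated starts, the outermost is shown.
Bmf, chr2:118549637-118549936, minus strand: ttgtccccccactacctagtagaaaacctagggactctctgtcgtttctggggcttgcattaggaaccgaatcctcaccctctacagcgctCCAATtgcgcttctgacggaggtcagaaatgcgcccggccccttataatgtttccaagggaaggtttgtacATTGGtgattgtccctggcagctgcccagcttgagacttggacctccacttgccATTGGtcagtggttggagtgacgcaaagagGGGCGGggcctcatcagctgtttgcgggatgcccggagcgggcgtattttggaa
Bak1, chr17:27028578-27028877, minus strand: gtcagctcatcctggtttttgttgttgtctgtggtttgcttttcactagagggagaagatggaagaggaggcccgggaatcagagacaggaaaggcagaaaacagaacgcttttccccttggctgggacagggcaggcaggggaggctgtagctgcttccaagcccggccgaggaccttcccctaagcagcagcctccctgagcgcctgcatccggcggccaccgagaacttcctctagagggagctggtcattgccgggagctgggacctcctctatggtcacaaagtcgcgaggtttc
Bad, chr19:6941611-6941910, plus strand: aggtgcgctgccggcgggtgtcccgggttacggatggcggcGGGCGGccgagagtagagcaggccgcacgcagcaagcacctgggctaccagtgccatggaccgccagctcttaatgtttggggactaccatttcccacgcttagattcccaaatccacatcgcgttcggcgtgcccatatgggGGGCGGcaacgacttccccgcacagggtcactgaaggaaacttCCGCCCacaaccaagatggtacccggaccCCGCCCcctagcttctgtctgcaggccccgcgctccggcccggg
Bcl2, chr1:106714241-106714540, minus strand: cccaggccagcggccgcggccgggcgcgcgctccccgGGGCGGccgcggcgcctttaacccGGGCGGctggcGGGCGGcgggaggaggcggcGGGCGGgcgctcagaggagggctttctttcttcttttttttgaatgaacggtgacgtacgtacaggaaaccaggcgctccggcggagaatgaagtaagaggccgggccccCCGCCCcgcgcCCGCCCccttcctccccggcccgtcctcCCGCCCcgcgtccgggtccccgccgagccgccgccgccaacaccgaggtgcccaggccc
The Bmf window has 1 GC box and 3 CCAAT matches, the Bak1 window neither, the Bad window 4 GC boxes and the Bcl2 window 7. GGGCGG is found in 35.7% of 32851 promoter windows and CCAAT in 37.4%. GC content was 55.3% in the Bmf window, 58.3% in that of Bak1, 65.7% in that of Bad and 76.0% in that of Bcl2, against a median of 52.7% over all windows. The Bcl2 window has 44 CpG dinucleotides and the Bmf, Bak1 and Bad windows 13, 11 and 27, against a median of 7. TGATNGAT, a sequence bound by HOX and PBX proteins together, and the homeodomain core TAATTA, searched on both strands, were not in any window of the 10 genes, and were in 2.1% and 5.29% of all windows. TATAAA was not found in them either (13.6% of all windows). A match in these windows describes the sequence and shows no binding.

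Recovered reads summed over the genes of the table, mitochondrial genes included, were 34260116 to 44191917 in GoF and 34342568 and 44384354 in CTRL. The factors by which reads had been divided to give normalized counts were 0.975, 1.24 and 1.24 in GoF and lower in CTRL, 0.853 and 0.801. Hoxb1, the targeted gene, had 1021, 1003 and 1041 normalized counts in GoF and 752 and 610.2 in CTRL (1.51-fold, adjusted p = 0.0147). Its log2 fold change was 0.59 with all libraries, 0.59 without GoF replicate 1 and 0.26 after GC adjustment, and it did not pass in the last 2 (adjusted p = 0.0601 and 0.252). The count cannot tell reads of the added allele from those of the endogenous gene. Mitochondrial genes took 36.7%, 37.4% and 35.7% of reads in GoF and 50.7% and 44.4% in CTRL, and their part in the results was not tested. GoF replicate 1 lay close to the middle of the other GoF libraries. Among the 9082 genes averaging 200 or more normalized counts it was between replicates 2 and 3 in 69.5%, and it was so for all 5 members at that level. With the members of lower level included it was so for 8 of the 9, all but Bcl2l1. Over those 9082 genes the SD of its log2 values about their mean was 0.279 times the SD of their difference, where 0.866 is expected of separate libraries with the same variance. The fits were therefore also made without it. Of all genes tested, 2054 were called higher and 1835 lower with all libraries, and 678 and 554 without GoF replicate 1. The edgeR test on recovered reads called 2089 higher and 1705 lower. When libraries were scaled by their total of nuclear reads, 2897 genes were higher and 890 lower, and the median log2 fold change of all genes was 0.14 in place of -0.0073.

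Among the pro-survival genes, Bcl2 (mm10 chromosome 1, 106538178 to 106714274, minus strand) had 1666, 1578 and 1752 normalized counts in GoF and 1208 and 2109 in CTRL. The GoF libraries lay close together and between the CTRL libraries, which differed 1.75-fold. Its log2 fold change was 0.06 (SE 0.20, adjusted p = 0.848). Because of the gap within CTRL, the direction depended on which control was kept. The log2 fold change of Bcl2 was -0.34 without CTRL replicate 2 and 0.46 without CTRL replicate 3. The antisense gene D630008O14Rik, which shares 6.09% of the exon bases of Bcl2 on the opposite strand, had 24.6 to 33.98 normalized counts in GoF and 48.1 and 139.8 in CTRL.

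Mcl1 (chromosome 3, 95658788 to 95663176) had 7204, 7956 and 7147 normalized counts in GoF and 10983 and 7652 in CTRL. GoF replicate 2 was above CTRL replicate 3, so the groups overlapped. Mcl1 was the 1 member with a log2 fold change under 0 (-0.30, SE 0.14, adjusted p = 0.153). Its log2 fold change was -0.56 when CTRL replicate 3 was left out and -0.043 when CTRL replicate 2 was left out.

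Bcl2l1 (chromosome 2, 152780668 to 152831728, minus strand) had 119, 144 and 154 normalized counts in GoF and 51.6 and 109 in CTRL. All GoF libraries were above the controls, the lowest only slightly, and the controls differed 2.10-fold. At 1.83 times the CTRL level (log2 fold change 0.87, SE 0.33) Bcl2l1 did not pass (adjusted p = 0.088). It passed without CTRL replicate 3 (adjusted p = 0.0115). Bcl-xL is known to keep immature red blood cells alive. The summed level of 7 red blood cell markers was 15970, 13932 and 17837 normalized counts in GoF and 11213 and 7011 in CTRL, with every GoF library above both controls. Within CTRL, replicate 2 had the higher sum but the lower Bcl2l1 count. Within GoF, replicate 3 was highest in both, while replicate 2 had the lowest sum and replicate 1 the lowest Bcl2l1 count. The part of red blood cells in the Bcl2l1 values was not tested. In bulk tissue, a change in the number of cells of a type and a change in RNA per cell cannot be told apart.

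Of the effectors, Bak1 (chromosome 17, 27019810 to 27029009, minus strand) had 518, 505 and 529.9 normalized counts in GoF and 314 and 239.6 in CTRL. The 3 GoF libraries were within 1.05-fold of each other and all above the controls, which differed 1.31-fold. Bak1 rose 1.88-fold (log2 fold change 0.91, SE 0.16, adjusted p = 0.00877), and 1.88-fold without GoF replicate 1 (adjusted p = 0.0289). After GC adjustment it was 1.30-fold higher and did not pass (adjusted p = 0.22). Bak1 shares at most 25.5% of its annotated exon bases with Ggnbp1 on the opposite strand. This is a sum over 2 annotated gene records of that name, and bases in both would be counted more than once. Whether the counting used strand is not given in the sources used here. Ggnbp1 had 61.5, 61.5 and 68.8 normalized counts in GoF and 80.9 and 122 in CTRL, a difference in the other direction (adjusted p = 0.126).

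Bax (chromosome 7, 45461697 to 45466898, minus strand) was among the members with the fewest reads, at 58.4, 93.0 and 55.8 normalized counts in GoF and 37.5 and 37.4 in CTRL. All GoF libraries were above the controls, but they differed 1.67-fold among themselves. At 1.77 times the CTRL level (log2 fold change 0.83, SE 0.33) Bax did not pass (adjusted p = 0.100). It shares 12.2% of its exon bases with Gm45808 on the same strand, which has no row among the genes analysed here. It had the highest GC content of the 9 genes, 63.5%, and after GC adjustment Bax was at 1.02 times the CTRL level (adjusted p = 0.961). The log2 ratio of Bax to Bcl2 counts was -4.83, -4.08 and -4.97 in GoF and -5.01 and -5.82 in CTRL, so that GoF replicate 3 was close to CTRL replicate 2.

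Among the BH3-only genes, Bmf (chromosome 2, 118528757 to 118549687, minus strand) had 642, 748 and 586 normalized counts in GoF and 334 and 283 in CTRL. The lowest GoF library was well above the higher control, and the controls differed 1.18-fold. Bmf, whose protein is held at the actin cytoskeleton through a dynein light chain in resting cells, rose 2.13-fold (log2 fold change 1.09, SE 0.15, adjusted p = 0.0054). It rose 2.15-fold without GoF replicate 1 (adjusted p = 0.0101), and 1.69-fold after GC adjustment (log2 fold change 0.76, SE 0.15, adjusted p = 0.0339). With both changes made at once the estimate was 1.71-fold and did not pass (adjusted p = 0.126). Bmf was called higher under 16 of 18 alternative settings, Bak1 under 15 of 18 and Bad under 10 of 17. No other annotated gene shares exon bases with Bmf.

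Bad (chromosome 19, 6941861 to 6951899), whose protein binds Bcl2 and Bcl-xL when growth factor signals do not keep it phosphorylated, had 61.5, 45.3 and 95.5 normalized counts in GoF and 4.69 and 22.5 in CTRL. These rest on few reads, 60, 56 and 118 in GoF and 4 and 18 in CTRL. The groups did not overlap, and the spread within each was wide, 2.11-fold in GoF and 4.79-fold in CTRL. Bad rose 5.66-fold (log2 fold change 2.50, SE 0.63, adjusted p = 0.0275). On recovered reads the log2 fold change was smaller, 2.34 in edgeR and 2.32 in DESeq2. The call was lost when any 1 of GoF replicates 1, 2 and 3 or CTRL replicate 2 was left out (adjusted p = 0.0541, 0.0544, 0.0839 and 0.0623), and after GC adjustment (3.89-fold, adjusted p = 0.0935). The log2 fold change was 1.48 without CTRL replicate 2, 3.52 without CTRL replicate 3 and 1.77 with a pseudocount of 10 (adjusted p = 0.0226 in the last). Bad shares 20.5% of its exon bases with Gpr137 on the opposite strand, which has no row among the genes analysed here.

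Bid (chromosome 6, 120891930 to 120916853, minus strand), which links death receptors to mitochondria once caspase 8 has cut it, had 189.7, 173 and 204 normalized counts in GoF and 168 and 112 in CTRL. GoF replicate 2 was close to CTRL replicate 2, and the log2 fold change of 0.45 (SE 0.22) did not pass (adjusted p = 0.172). The value was 0.74 without CTRL replicate 2 and 0.17 without CTRL replicate 3. Bid shares 17.7% of its exon bases with Bcl2l13 on the opposite strand, itself called higher (1.25-fold). Bcl2l11, which encodes Bim, an activator of Bax and Bak1, had 2814, 3332 and 2425 normalized counts in GoF and 2338 and 2838 in CTRL. It varied as much within the groups as between them (chromosome 2, 128126038 to 128162547; log2 fold change 0.14, SE 0.14, adjusted p = 0.511). The GoF libraries spanned 0.46 log2 units for Bcl2l11, against a median of 0.13 for 2545 genes of similar level.

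**Figure D2:**
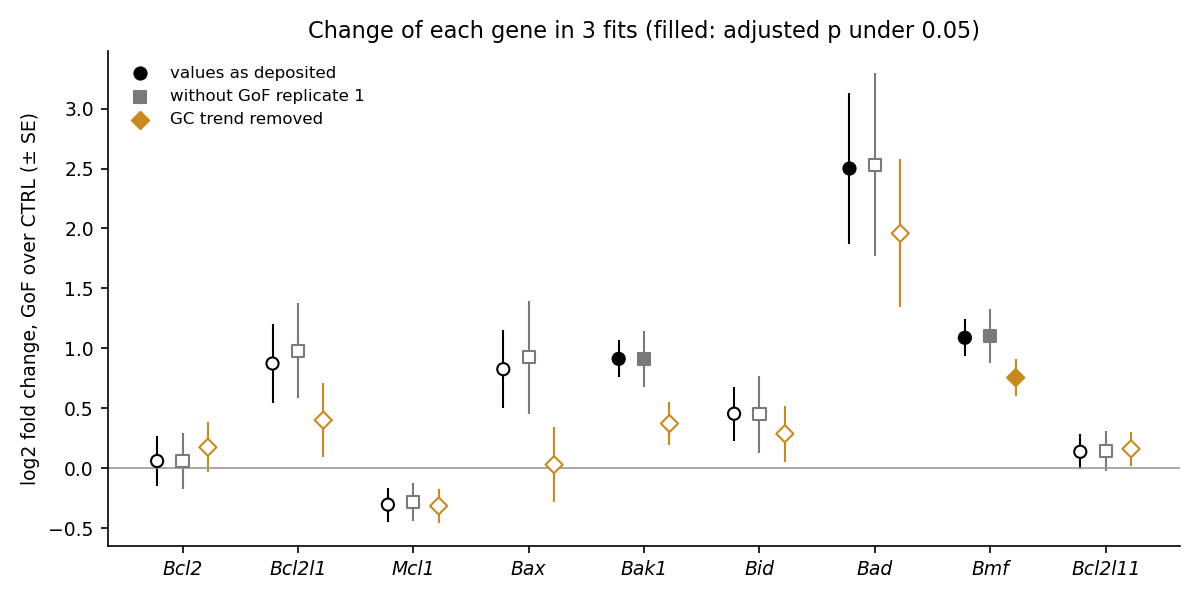
Log2 fold change of GoF over CTRL (points, bars are SE) for the 9 genes with all libraries and values as deposited (black), without GoF replicate 1 (grey) and after GC adjustment (orange, GC trend removed). Filled points have an adjusted p under 0.05. Bmf is filled in all 3 fits, Bak1 in the first 2 and Bad in the first.

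The fold changes of these genes have to be read beside their base composition, since over the whole table they followed the GC content of the longest transcript. Bax, Bad and Bak1 (63.5%, 57.1% and 57.1% GC) fall in decile 10 of genes by GC content, the highest, in which 40.3% of 1624 genes were called higher and the median log2 fold change was 0.65. Bcl2l1 (55.9%) falls in decile 9, with 29.8% called higher and a median of 0.45, and Bmf (53.7%) in decile 8, with 20.2% and 0.30. Bid (51.3%), Mcl1 (48.7%), Bcl2l11 (48.0%) and Bcl2 (46.3%) lie in deciles 7, 6, 5 and 4, with 14.2%, 8.81%, 4.87% and 3.26% called higher. The 5 members with the highest GC content were also the 5 with the highest fold changes. Bad lay farthest above the median of its decile, and Mcl1 lay below its own. When the trend was subtracted from each library (GC adjustment), the median log2 fold change of the 9 genes was 0.29 in place of 0.83 (all genes: 0.0021 and -0.0073), 1 of 9 was called higher, and 3.1% of all genes were. A real difference that tracks GC content would be subtracted with it. The cause of the trend was not tested.

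**Figure D3:**
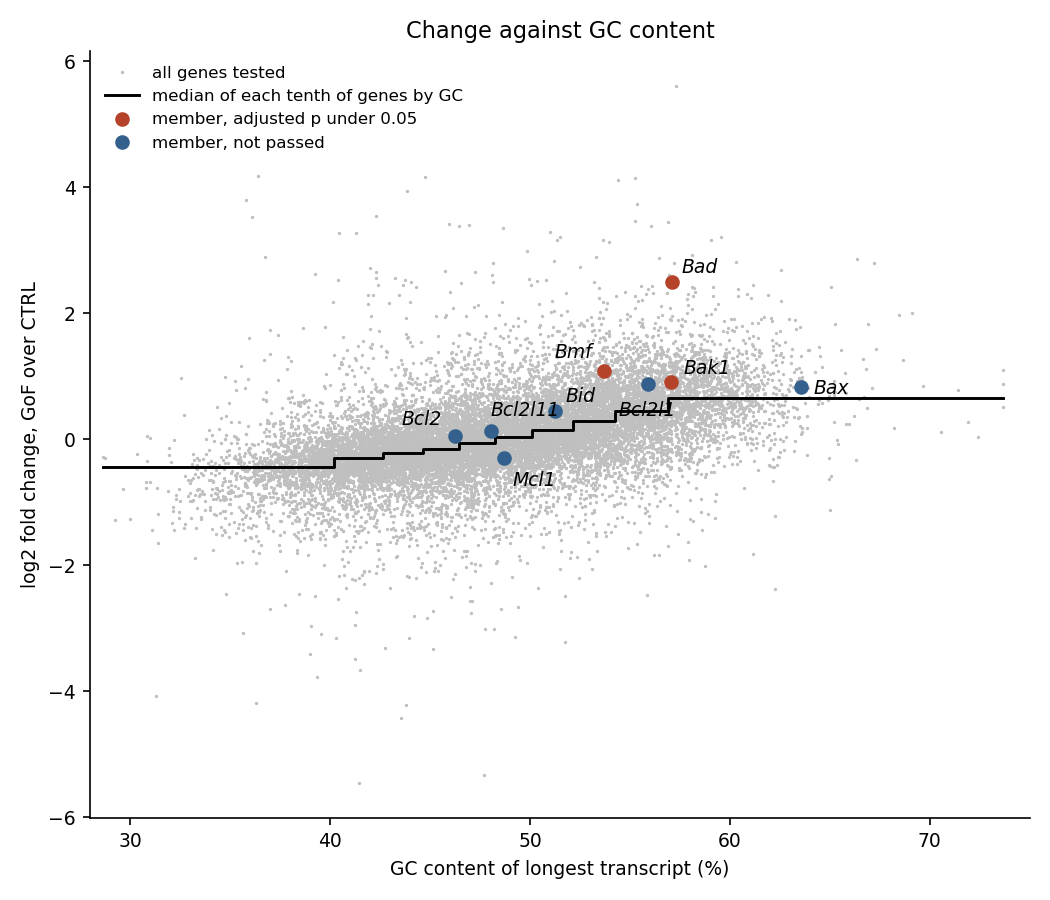
Log2 fold change of GoF over CTRL against the GC content of the longest transcript for all genes tested (grey), the median of each decile of genes by GC content (black steps) and the 9 members (red, adjusted p under 0.05; blue, not passed). Bax and Bak1 lie close above the step of decile 10, at 0.65, Bmf lies above its step, at 0.30, and Bad lies well above the steps.

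Compared per kb of the longest transcript, the RNA of Mcl1 was the most abundant of the family in every library, with 2108, 2328 and 2091 normalized reads per kb in GoF and 3213 and 2239 in CTRL. Bcl2l11 came next, at 559, 662 and 481 reads per kb in GoF and 464 and 563 in CTRL, and its range did not overlap that of Mcl1 or of Bcl2. Bcl2 (219 to 244 reads per kb in GoF, 168 and 293 in CTRL), Bak1 (211 to 222 and 100.4 and 132), Bmf (126 to 161 and 61.0 and 72.0) and Bid (71.7 to 84.4 and 46.5 and 69.4) followed in that order in all 5 libraries, although the ranges of neighbours overlapped. Bax, Bcl2l1 and Bad had the lowest means, but their order differed between libraries, and Bax (84.6 reads per kb) was above Bid (71.7) in GoF replicate 2. Of the summed per-kb level of the 9 genes, the pro-survival genes held 68.7%, 68.1% and 70.0% in GoF and 81.5% and 75.8% in CTRL. Most of this was Mcl1, with 60.7%, 60.9% and 61.1% in GoF and 76.95% and 65.95% in CTRL. Mcl1 itself was not called and its counts overlapped between the groups, while Bcl2l1 was higher in every GoF library. The share therefore does not describe a drop of the pro-survival genes as a class. The effectors held 7.78%, 7.74% and 7.97% in GoF and 3.97% and 3.96% in CTRL. The ratio of Bcl2l11 to Bmf, the most and the next most abundant BH3-only RNA, was 4.04, 4.11 and 3.82 per kb in GoF and 6.45 and 9.23 in CTRL. These shares and ratios are given as descriptions and carry the GC content of their members with them.

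**Figure D4:**
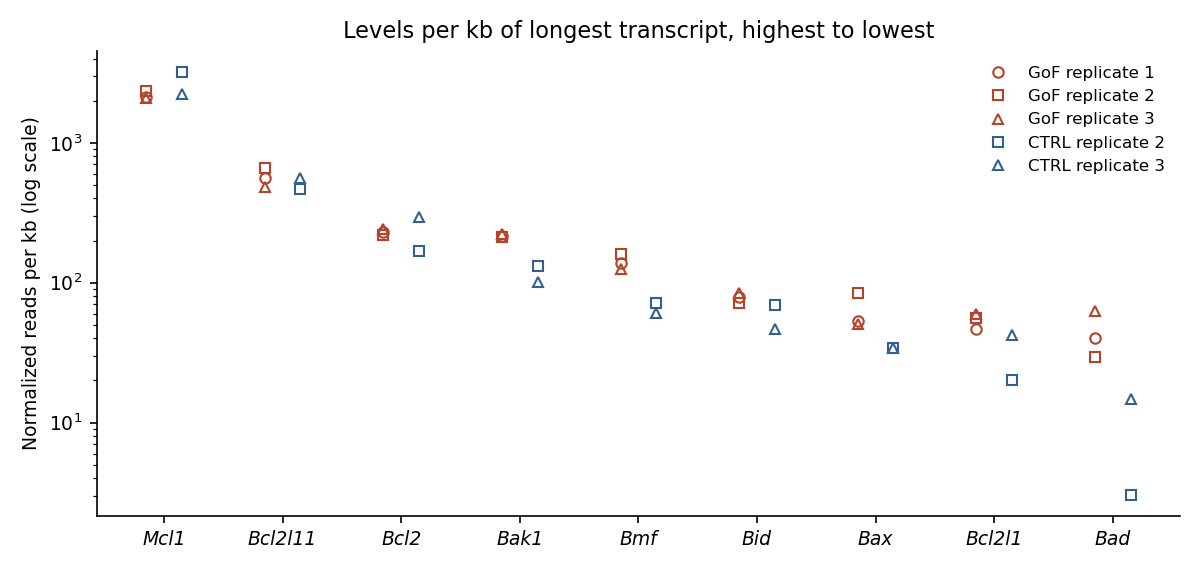
Normalized reads per kb of the longest transcript (log scale) for the 9 genes from highest to lowest mean, with GoF libraries (red) left of CTRL libraries (blue) and marker shapes for the replicates. Mcl1 is at 2091 reads per kb or more in every library, and Bad is lowest in CTRL, at 3.06 and 14.7.

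The genes with the most similar pattern over the 5 libraries were found by the root mean square distance between centred log2(normalized count + 1) values among 11375 genes with a mean of at least 50, leaving out the members, predicted gene models and RIKEN-named genes. For Bmf they were Phf13 (distance 0.034), Atad3a (0.035) and Mrpl38 (0.049), against a median distance of 0.56. For Bak1 they were Pmf1 (0.028), Rab27a (0.032) and Rab34 (0.041), against a median of 0.49. For Bad the nearest were Mvd, Tmem132a and Igfbp2, at larger distances of 0.35, 0.40 and 0.43 (median 1.42). Mvd, for example, had 73.8, 62.3 and 92.2 normalized counts in GoF and 10.6 and 31.2 in CTRL, the same order of libraries as Bad.

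Other genes of apoptosis were read from 6 lists with 85 genes, of which 65 were tested. In all 11 rose, 6 fell and 48 did not pass, with a median log2 fold change of 0.15, where 12.2% of all genes were called higher and 10.9% lower. Without GoF replicate 1, 3 rose and 2 fell (4.04% and 3.3% of all genes). After GC adjustment, 4 rose and 5 fell among 64 (3.1% and 3.31% of all genes). Of 10 other BCL2 family genes, 3 rose and 7 did not pass (median 0.52). Bnip3, which encodes a mitochondrial protein induced by low oxygen, had 758, 411 and 1203 normalized counts in GoF and 223 and 267 in CTRL. It rose 2.95-fold (adjusted p = 0.0281), and 3.62-fold after GC adjustment (adjusted p = 0.0401), but it was not called when GoF replicate 1 was left out (adjusted p = 0.194), and the GoF libraries differed widely. Bok, an effector relative of Bax, had 80.0, 87.4 and 73.6 normalized counts in GoF and 31.7 and 44.9 in CTRL and rose 2.09-fold (adjusted p = 0.0334), as did Bcl2l13, a family member of the mitochondrial surface (1.25-fold, adjusted p = 0.0346). Neither Bok nor Bcl2l13 passed when GoF replicate 1 was left out (adjusted p = 0.151 and 0.172) or after GC adjustment, when Bok was at 1.28 and Bcl2l13 at 1.21 times the CTRL level (0.421 and 0.0817). Among those that did not pass, named after their values were seen, the pro-survival gene Bcl2l2 was at 1.11 times the CTRL level, and the BH3-only genes Pmaip1 and Hrk at 1.57 and 2.01 times (adjusted p = 0.42, 0.415 and 0.118). For Pmaip1 all GoF libraries, at 39.6 to 46.1 normalized counts, lay between the controls, at 12.9 and 52.4. Pmaip1 and Hrk rest on few CTRL reads, 11 and 42 for Pmaip1 and 35 and 14 for Hrk. Bcl2a1a, Bcl2a1b, Bcl2a1d, Bcl2l10, Bik and Bcl2l14 were not analysed here.

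Downstream of the mitochondria, 13 genes were tested, with 2 higher, 1 lower and 10 that did not pass (median 0.20). Htra2, a protease released from mitochondria that blocks inhibitors of apoptosis, had 79.0, 84.9 and 72.0 normalized counts in GoF and 21.1 and 25.0 in CTRL (3.32-fold, adjusted p = 0.00855). After GC adjustment Htra2 was 2.08-fold higher and did not pass (adjusted p = 0.0629). Dffa, which holds the DNA-cutting nuclease of apoptosis inactive, had 218, 243 and 196 normalized counts in GoF and 327 and 429 in CTRL. It fell to 0.584 of the CTRL level (adjusted p = 0.0233) and to 0.472 after GC adjustment (adjusted p = 0.0169). Its log2 fold change was -0.78 with all libraries, -0.78 without GoF replicate 1 and -0.70 without GoF replicate 3, and it did not pass in the last 2 (adjusted p = 0.0788 and 0.0573). Cytochrome c (Cycs), Apaf1 and Casp9, which form or start the apoptosome and are named here after their values were seen, did not pass, at 1.07, 0.897 and 1.46 times the CTRL level (adjusted p = 0.712, 0.253 and 0.113).

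Of 5 inhibitor of apoptosis genes, 2 fell and 3 did not pass (median 0.019). Xiap, which blocks caspases directly, had 6174, 6213 and 6256 normalized counts in GoF and 10544 and 7630 in CTRL. It fell to 0.693 of the CTRL level (adjusted p = 0.0236), but its transcript has a low GC content of 36.8%, and after GC adjustment the value was 0.987 (adjusted p = 0.929). Birc6, a large ubiquitin-conjugating inhibitor, fell to 0.741 (adjusted p = 0.00686), and to 0.798 after GC adjustment (adjusted p = 0.0285). In the death receptor pathway 2 of 6 rose and 4 did not pass (median 0.26). They were the adaptor gene Fadd, 1.59-fold (adjusted p = 0.0182), and the receptor gene Tnfrsf1a, 2.20-fold (adjusted p = 0.0352), and neither passed when GoF replicate 1 was left out (adjusted p = 0.0745 and 0.187) or after GC adjustment (0.0782 and 0.207).

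Among 17 genes for binding partners and turnover of BCL2 family proteins, 2 rose, 3 fell and 12 did not pass (median -0.11). Bag6, a chaperone, rose 2.13-fold (adjusted p = 0.0019) and Ywhae, a protein of the kind that sequesters phosphorylated Bad, rose 1.24-fold (adjusted p = 0.0212). Both were also called after GC adjustment, at 1.34-fold and 1.43-fold (adjusted p = 0.0319 and 0.0161), and Ywhae not without GoF replicate 1 (0.0972). Ywhaq, of the same kind as Ywhae, and Usp9x, which protects Mcl1 from breakdown, fell to 0.769 and 0.788 of the CTRL level (adjusted p = 0.0182 and 0.0241), but neither passed when GoF replicate 1 was left out (0.0914 and 0.0909) or after GC adjustment (0.139 and 0.919). The dynein light chain genes Dynll1 and Dynll2, which hold Bim and Bmf and are named here after their values were seen, did not pass (0.848 and 0.772 of the CTRL level, adjusted p = 0.106 and 0.123). Dynll2 was lower after GC adjustment (0.613, adjusted p = 0.0319), but was not called when GoF replicate 1 was left out as well (0.141). Its normalized counts overlapped between the groups. Of 14 transcription factor genes that act on the family, 2 rose and 12 did not pass (median 0.24). Trp53, which encodes the p53 activator of Bax and Bbc3, had 7662, 8084 and 6846 normalized counts in GoF and 5063 and 4771 in CTRL. It rose 1.53-fold (adjusted p = 0.00639), and was 1.24-fold higher without passing after GC adjustment (adjusted p = 0.0742). Foxo4, a forkhead factor, rose 1.76-fold (adjusted p = 0.0226), but did not pass when GoF replicate 1 was left out (0.123) or after GC adjustment (0.214).

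**Figure D5:**
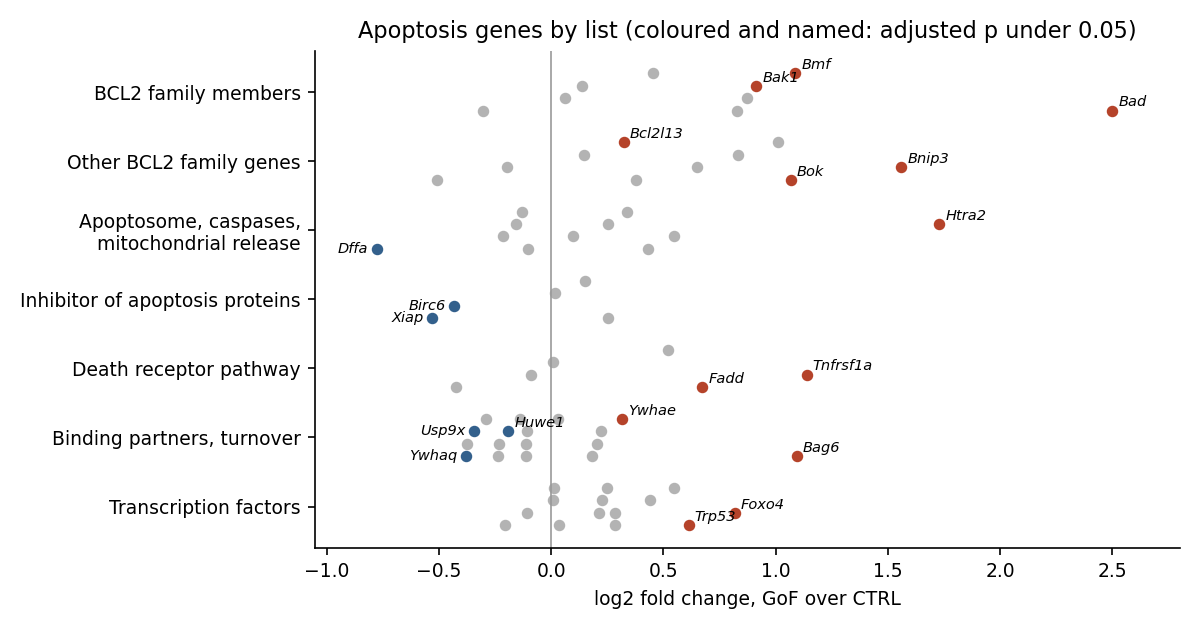
Log2 fold change of GoF over CTRL for tested genes of the BCL2 family and of 6 other apoptosis lists, with genes of adjusted p under 0.05 named and coloured red (higher) or blue (lower) and the rest grey. Bad and Htra2, at 2.50 and 1.73, lie farthest to the right and Dffa, at -0.78, farthest to the left.

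Marker lists showed which other cells could contribute to these values. Of 12 second heart field markers 11 were in the table, with Isl1, named as the defining gene, at 718 to 731 normalized counts in GoF and 708 and 728 in CTRL. Of these, 2 rose (Osr1 and Tbx5, with log2 fold changes of 2.09 and 0.58, adjusted p = 0.0057 and 0.0295), Fgf10 fell to 0.53 of the CTRL level (adjusted p = 0.0082) and 8 did not pass. Heart muscle markers summed to 206723, 183026 and 232246 normalized counts in GoF and 282565 and 390903 in CTRL (7 of 8 in the table). Ttn made up most of that sum and fell to 0.525 of the CTRL level (adjusted p = 0.0124). It did not pass after GC adjustment (0.051) or without GoF replicate 1 (0.0969). Without Ttn the other 6 summed to 62267, 61534 and 62047 in GoF and 53499 and 62814 in CTRL. Of the 7, 1 was called higher, 2 lower and 4 did not pass. Hba-x made up most of the red blood cell sum given beside Bcl2l1, and without it the sums were 3051, 2659 and 3359 in GoF and 2545 and 2186 in CTRL. Of the 7 red blood cell markers, 2 were called higher and 5 did not pass, and after GC adjustment 0 were higher and 1 lower. White blood cell markers were near absent, with 2 of 10 in the table and sums of 122 to 204 in GoF and 112 and 216 in CTRL, of which Cd68 took most. Liver bud markers (3 of 6, Afp the highest) summed to 259.6 to 362 in GoF and 583 and 8.74 in CTRL, with all GoF libraries between the controls. Endothelial markers (7 of 7, Erg the highest) summed to 8173 to 8977 in GoF and 10950 and 8929 in CTRL. Erg itself fell to 0.477 of the CTRL level (adjusted p = 0.0081). Without Erg the sums were 6640.5, 6543 and 6633 in GoF and 6095 and 5383 in CTRL, with every GoF library above both controls. Of the 7 endothelial markers, 1 was called higher, 2 lower and 4 did not pass. Neural crest markers (6 of 6, Tfap2b the highest) summed to 3813 to 4111 in GoF and 2782 and 3765 in CTRL. Neural markers (8 of 8, Pax6 the highest) summed to 2078 to 2222 in GoF and 2636 and 2305 in CTRL. Endoderm and epithelium markers (8 of 8, Cdh1 the highest) summed to 4293 to 4524 in GoF and 5070 and 3332 in CTRL. Of these 8, 3 were called higher, Cdh1 among them (1.32-fold, adjusted p = 0.0200), 1 lower and 4 did not pass. After GC adjustment 0 of them were higher and 1 lower. The part of these cell types in the values of the BCL2 family genes was not tested.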

How the data were processed

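RNA was amplified from 2 ng per sample with random and poly-T primers by single primer isothermal amplification before library preparation, per the labels' protocols. Tools listed are STAR 2.5.2, bcl2fastq 2.17.1.14, DESeq2 and HTSeq, with mm10 as build, per the submitters' processing notes. Neither the strand setting nor the annotation is given in the sources used here. The deposited table holds a signal per gene and library, normalized by the authors, besides the authors' log2 fold change, test score and p-value per the file headers. Within each library 100% of deposited values were whole multiples of 1 step (tolerance 0.001), so that read counts could be recovered. The lowest mean in the table was 6.1.

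Genes averaging 10 or more normalized counts were tested with limma 3.58.1 (R 4.3.3, trend and robust, no covariates) on log2(normalized count + 1), with p-values adjusted over all genes. Fold changes are on this scale, on which a larger pseudocount shrinks the changes of low genes. For Bad, the limma value was nevertheless above those of edgeR and DESeq2. Alternatives were other pseudocounts, filters and scalings, edgeR 4.0.16 and DESeq2 1.42.0 on recovered reads, each library left out, the replicate number as a block, and GC adjustment, the removal of a GC trend (lowess, span 0.3) using the longest GENCODE M21 transcript, matched for 96.7% of genes. The fits were tested on simulated counts. Of the 6 samples listed, 5 had values. The 10 genes, the gene lists and the tests were chosen with earlier results of these data known. Text names all members, up to 4 called genes per apoptosis list by lowest adjusted p, the highest gene of each marker list, and the 3 nearest genes in pattern to the 3 members with the lowest adjusted p. Some genes of the apoptosis lists are counted but not reported by name or plotted here. No molecular identifiers are described, so read numbers can overstate the number of molecules behind a value.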

Additional observations from a re-analysis of the deposited data

How the results depend on the processing

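The count of 3 members called higher was 1 after GC adjustment, 0 after GC adjustment without GoF replicate 1, and 0 with the replicate block and GC adjustment (limma, with 2 members higher at an unadjusted p under 0.05 in each of these 3 settings, and 1 lower in the last). It was 2 to 5 when 1 library was left out, with 5 without CTRL replicate 3, and the count lower, 0 in the reported fit, was then 0 to 1. Over single genes, 143 of 161 values of the members under an alternative kept their direction and their side of the threshold, 12 lost the call, 4 gained one and 2 turned round. For the 6 members not called in the reported fit, a kept side means that they stayed uncalled. The alternatives also overlap, since the replicate block gave the members the same estimates as leaving out GoF replicate 1. Leaving out 1 library at a time put Bcl2 between -0.34 and 0.46 and Bcl2l11 between -0.0024 and 0.28 on the log2 scale, with the negative values without CTRL replicate 2, and the cause was not tested. Usp9x turned to 0.012 after GC adjustment, 0.013 with this and without GoF replicate 1, and 0.013 with the block and GC adjustment. The 11 other apoptosis genes higher and 6 lower became 4 higher after GC adjustment, 1 and 0 with this and without GoF replicate 1, 4 and 2 with the replicate block, and 2 and 0 with the block and GC adjustment. The count lower was 3 when scaled by total nuclear reads and 2 with quantile normalization, and without 1 library the counts were 3 to 12 higher and 2 to 8 lower. Over all genes, 2054 higher and 1835 lower became 504 and 538 after GC adjustment, 52 and 66 with this and without GoF replicate 1, 765 and 606 with the replicate block, 73 and 90 with the block and GC adjustment, and 890 lower when scaled by nuclear reads. Without 1 library they were 678 to 2734 higher and 554 to 2552 lower, fewest without GoF replicate 1. The replicate numbers paired no samples by the labels, and deviations of same-numbered libraries had a correlation across genes of 0.0068 for replicate 2 and 0.0025 for replicate 3. The GoF mean share of the per-kb level held by pro-survival genes was 68.9% with the longest transcript and 74.5% with the union of exons. When a control was left out, the lone CTRL library was assumed to vary like the GoF libraries. No value was had for Bad with a mean of at least 50 required. Bax and Bad, with the fewest reads, are the members that depth limits most.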
